A study of Mus musculus with 32 samples.

Results

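The genes described here encode the subunits of the vacuolar proton pump (V-ATPase), the cathepsin proteases that work in the acid compartment it makes, 3 lysosomal membrane proteins (Lamp1, Lamp2 and Mcoln1) and 2 transcription factors of lysosomal genes (Tfeb and Tfe3). The rule goes by gene symbol in the count tables and takes every symbol starting with Atp6v0, Atp6v1, Atp6ap1 or Atp6ap2, every cathepsin symbol made of Cts and 1 letter, and the 5 named genes, although the set itself was proposed with earlier results of these data known. Symbols with a digit or more letters after Cts (Cts3, Cts6, Cts7, Cts8, Cts8-ps and Ctsll3) are also in the tables and were not taken. This gave 49 of the 23284 genes listed. Of these, 38 had at least 10 counts in at least 3 of the 32 libraries and are described; the other 11 (Atp6ap1l, Atp6v0c, Atp6v0c-ps2, Atp6v1b1, Atp6v1e2, Atp6v1g3, Ctsg, Ctsj, Ctsm, Ctsq and Ctsr) fell below that level. The 38 comprise 8 subunits of the membrane sector V0, 10 of the catalytic sector V1, 2 accessory subunits, 10 cysteine cathepsins, 3 aspartic or serine cathepsins, the 3 membrane proteins and the 2 factors.

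The study asked what the pluripotency factor Oct4 (gene Pou5f1) does in smooth muscle cells during atherosclerosis, and RNA was sequenced from mouse artery and from cultured cells. Lesions came from brachiocephalic arteries of 4 Oct4 KO (Oct4 -/-) and 4 WT animals, all labelled strain C57BL/6 and kept on Western diet for 18 weeks. In the published design both genotypes lacked Apoe, and Oct4 was deleted by a tamoxifen-induced Cre under the smooth muscle promoter Myh11, so that other cells of the lesion keep the gene. The labels call the lesion a mixture of cell types, and the animals' ages are not given in the sources used here. Cultures were primary aortic smooth muscle cells of the same strain, Oct4 KO or WT, given POVPC (an oxidized phospholipid found in lesions) or vehicle, in hypoxia (1% oxygen) or normoxia, with 3 libraries in each of the 8 groups. Each genotype was 1 cell line, so genotype and line cannot be told apart, and nothing in the labels says whether the 3 libraries of a group were separate cultures. The culture p-values therefore measure the spread between libraries, which may be technical.

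The V-ATPase pumps protons into lysosomes and endosomes at the cost of ATP. Its V1 sector hydrolyses ATP in the cytosol and its V0 sector carries protons through the membrane. Cathepsins mature and work at the resulting acid pH, and several of them, secreted by macrophages and smooth muscle cells, cut elastin and collagen in the artery wall. Tfeb and Tfe3 bind a palindromic promoter element whose core is an E-box, and through it drive genes of the V-ATPase, of lysosomal enzymes and of autophagy.

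The promoter core TCACGTG stood in 8 of the 37 genes whose promoters are listed in RefSeq (GRCm38.p6), or 21.6%, against 4.29% of all 27025 genes listed. Promoters ran from 250 bases before to 50 after the start, the motif was searched on both strands, and overlapping matches each counted, so that the palindrome TCACGTGA gives 2. The 8 windows below run from up to 40 bases before the first match to up to 40 after the last, cut at the promoter's far end and at the start site, or at the last match where that reaches past the start site, on the gene's strand; capitals mark the motif. They are shown because 7 of them belong to genes that rose under hypoxia in both lines with and without POVPC, as described further on.
Atp6v0b: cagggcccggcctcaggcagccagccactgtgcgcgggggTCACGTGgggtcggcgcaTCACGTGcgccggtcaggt
Atp6v0d1: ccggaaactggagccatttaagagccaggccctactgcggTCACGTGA
Atp6v0e: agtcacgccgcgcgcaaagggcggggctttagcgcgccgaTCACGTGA
Atp6v1a: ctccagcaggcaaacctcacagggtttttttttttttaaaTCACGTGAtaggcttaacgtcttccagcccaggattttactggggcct
Ctsa: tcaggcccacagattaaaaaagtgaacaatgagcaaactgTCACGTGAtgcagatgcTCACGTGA
Ctsd: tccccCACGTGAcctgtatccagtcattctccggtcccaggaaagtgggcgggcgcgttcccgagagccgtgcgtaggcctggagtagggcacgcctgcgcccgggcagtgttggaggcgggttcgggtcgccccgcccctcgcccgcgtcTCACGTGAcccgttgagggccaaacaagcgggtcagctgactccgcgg
Lamp1: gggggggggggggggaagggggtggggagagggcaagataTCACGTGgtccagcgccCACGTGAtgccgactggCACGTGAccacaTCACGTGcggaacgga
Mcoln1: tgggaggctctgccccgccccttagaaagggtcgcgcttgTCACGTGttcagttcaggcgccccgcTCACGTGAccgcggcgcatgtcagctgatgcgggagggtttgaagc

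In GRCm38.p6 these windows lie at chr4:117887330-117887406 (minus strand), chr8:105566061-105566108 (minus), chr17:26676358-26676405 (plus), chr16:44139344-44139431 (minus), chr2:164833720-164833784 (plus), chr7:142387879-142388077 (minus), chr8:13159059-13159160 (plus) and chr8:3500407-3500518 (plus), in the order of the names above. The Lamp1 and Ctsa windows each held 4 matches, and those of Ctsd and Mcoln1 held 3 each. The bare E-box CACGTG, which lies inside the longer motif, stood in 10 members (27%, against 8.09% of all genes), adding Ctsf and Ctsl. GTCACGTG stood in 6 (16.2%, against 2.55%), the palindrome TCACGTGA in 6 (16.2%, against 1.12%) and the longer palindrome, GTCACGTG followed by AC, in 0 (against 0.370%). ACGTG, the core to which hypoxia-inducible factors bind and which is part of the E-box, stood in 12 (32.4%, against 21.8%). These are matches of letters, and binding was not measured.

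Total counts were 6526099 to 11137414 in the lesion libraries and 8063121 to 30231799 in the culture libraries. Oct4 itself could not check the genotype labels: Pou5f1 had 3 counts over the 4 WT lesions and none over the 4 KO lesions, and 0 to 2 counts in each culture group. Principal components set KO lesion 4 and WT lesion 1 apart from the other lesions. Of 22 macrophage marker symbols listed for the check 21 are in the tables, which hold Emr1 and not its newer symbol Adgre1, and none of the 21 nor of the 14 smooth muscle markers was at 0 in all lesions of a genotype. In the cultures smooth muscle markers were low: Myh11, the smooth muscle myosin, averaged 1833 CPM (the count as a rate over the TMM-adjusted library total) in KO lesions and 2778 in WT lesions, and between 0.243 and 5.15 CPM in the culture groups, while none of the 14 markers was at 0 in any culture group. Macrophage markers summed to between 12.5 and 69.0 CPM per culture library, with 3 to 11 of the 21 genes at 0 in all 3 libraries of a group, among them C1qb and C1qc in 7 of the groups each. Of the 49 genes, Atp6v0c (the proteolipid subunit) had 0 to 4 counts a library; the annotation gives 1117 of its 1151 exon bases also to Atp6v0c-ps2, so its reads could not be assigned. Reads over the 773 exon bases that Ctsb shares with Fdft1, and the 495 and 324 that Ctsa shares with Pltp and Neurl2, all on opposite strands, could not be assigned either, since counting used no strand and left out reads over exons of more than 1 gene; the values of Ctsb and Ctsa rest on the remaining bases.

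In lesions, cathepsin RNA was the most abundant of the set and most of it stood higher in KO than in WT animals, without passing the test. On the per-length scale (RPKM), Ctsd (the main lysosomal aspartic protease) led in both genotypes at 2629 ± 749 in KO lesions and 1341 ± 240.2 in WT lesions (SD, n = 4 each). It was followed in KO lesions by Ctsl at 1589 ± 583, Ctss at 1299 ± 519 and Ctsb at 1153 ± 348 RPKM, cysteine proteases of the lysosome. In WT lesions Ctsl averaged 745 ± 199.9, Ctsb 617 ± 123 and Ctss 561 ± 178 RPKM, so the order of Ctsb and Ctss differed between the genotypes by less than their SDs. RPKM divide by the full listed exon length, while reads over 773 of the 4743 bases of Ctsb were not counted. The RPKM of Ctsb are therefore too low, and its place beside Ctss is uncertain. Summed per length, the 10 cysteine cathepsins reached 4815 ± 1679 RPKM in KO and 2379 ± 565 RPKM in WT lesions, the 10 V1 subunits 773 ± 39.7 RPKM in KO and 627 ± 119 RPKM in WT lesions, and the 8 V0 subunits 536 ± 60.6 RPKM in KO and 395 ± 65.6 RPKM in WT lesions.

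By edgeR's quasi-likelihood test, 0 of 14993 genes were called between KO and WT lesions at a false discovery rate (FDR) under 0.05, and so 0 of the 38 members (background 0% called). At an unadjusted p under 0.05, 21 members passed, all higher in KO, against 14.8% of all genes (2216; 9.19% passed as higher in KO), and DESeq2 called 489 genes, among them 12 members, all higher in KO. The log2 fold change was above 0 for 33 of 38 members (48.7% of all genes), and the median over members was 0.36, beside -0.0086 over all genes tested. By class, the median was 0.74 for the 10 cysteine cathepsins (8 with an unadjusted p under 0.05), 0.60 for the 3 aspartic or serine cathepsins (2), 0.47 for the 3 membrane proteins (2), 0.32 for the 2 accessory subunits (2), 0.29 for the 10 V1 subunits (4), 0.13 for the 8 V0 subunits (3) and 0.06 for the 2 factors (0). Bulk RNA cannot tell fewer cells of a type from less RNA per cell.

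**Figure D1:**
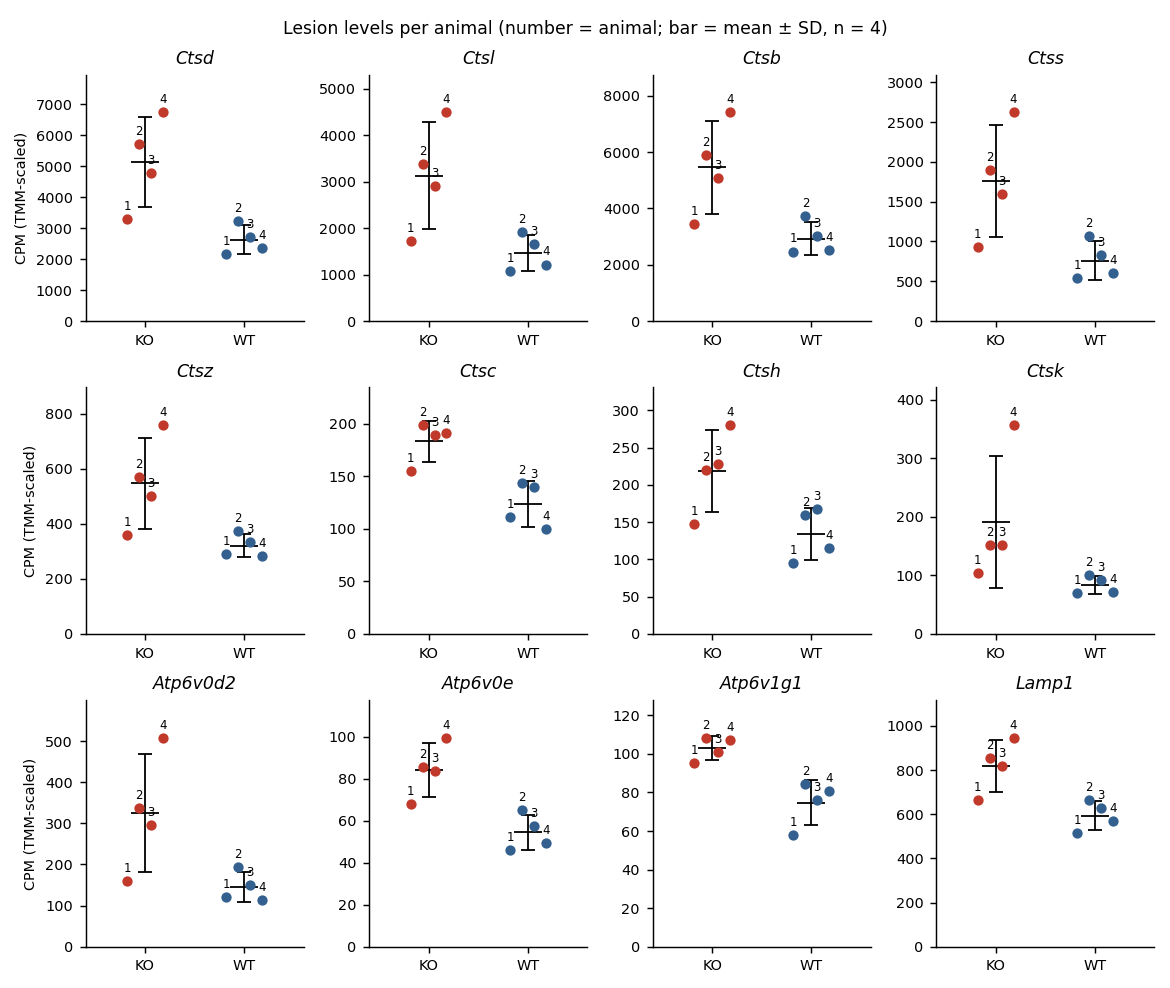
CPM (counts scaled to the TMM-adjusted library size) of 12 members in each lesion, 1 panel per gene, KO animals on the left and WT animals on the right, with the mean and SD of 4 animals beside the points. KO animal 4 is the highest point of the cathepsin panels Ctsd, Ctsl, Ctsb, Ctss, Ctsz and Ctsk, and KO animal 1 lies within or near the WT range in each of them.

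Among V0 subunits, Atp6v0e (the small e1 subunit) had the smallest p of all members. It was at 68.1, 85.7, 83.5 and 99.4 CPM in KO lesions 1 to 4 and 46.0, 65.0, 57.3 and 49.3 CPM in WT lesions 1 to 4, a log2 fold change of 0.63 ± 0.14 (SE; FDR 0.17). Every KO lesion lay above every WT lesion. Atp6v0d2, the d-subunit isoform of osteoclasts and macrophages, was at 159, 338, 297 and 508 CPM in KO and 122, 195, 151 and 114 CPM in WT lesions (1.16 ± 0.33, FDR 0.192). KO lesions 2 to 4 lay above all WT lesions, and KO lesion 1 lay among them. The broadly expressed isoform Atp6v0d1 differed by 0.11 ± 0.16, and the a1 subunit Atp6v0a1 by 0.012 ± 0.12. Both values turn on single lesions: the log2 ratio of mean CPM of Atp6v0d1 was -0.0023 without WT lesion 1 and 0.23 without WT lesion 4, and that of Atp6v0a1 was -0.041 without WT lesion 3 and 0.11 without WT lesion 4. Atp6v0a4, the renal a4 isoform, was at -0.64; as a log2 ratio of mean CPM it was -0.42 without WT lesion 3 and -0.83 without WT lesion 4. Atp6v0e2, the e2 isoform, was at 71.8, 37.5, 35.2 and 7.20 CPM in KO and 30.6, 60.2, 38.1 and 74.7 CPM in WT lesions (-0.44 ± 0.60). Its value turns on single lesions: the log2 ratio of mean CPM was -0.078 without KO lesion 4, -0.93 without KO lesion 1, -0.18 without WT lesion 4 and -0.60 without WT lesion 1.

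In V1, Atp6v1g1 (subunit G1, part of a stalk that joins the sectors) was at 95.3, 108, 101 and 107 CPM in KO lesions and 57.8, 84.6, 75.9 and 80.6 CPM in WT lesions (0.46 ± 0.12, FDR 0.172). The groups did not overlap. Atp6v1a, the catalytic A subunit, differed by 0.47 ± 0.16 and Atp6v1b2, the ubiquitous B subunit, by 0.29 ± 0.15. Atp6v1g2, the neuronal G isoform, was the only V1 subunit below 0 (-0.58 ± 0.37; log2 ratio of mean CPM -0.30 without KO lesion 4 and -0.85 without KO lesion 1). The accessory subunits Atp6ap1 and Atp6ap2 (the prorenin receptor) differed by 0.27 ± 0.12 and 0.36 ± 0.16, and neither overlapped between the groups. Without WT lesion 1 their log2 ratios of mean CPM were 0.17 and 0.22.

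Ctsk, the collagen-cutting cathepsin of osteoclasts, was at 104, 152, 151 and 357 CPM in KO lesions and 69.9, 100.1, 92.0 and 72.0 CPM in WT lesions, a log2 fold change of 1.19 ± 0.37 (FDR 0.221). Every KO lesion lay above every WT lesion, and KO lesion 4 stood well above the other KO lesions; without it the log2 ratio of mean CPM was 0.70. Ctss, an elastase that macrophages use in antigen presentation, was at 927, 1891, 1598 and 2624 CPM in KO and 540.1, 1072, 825 and 601 CPM in WT lesions (1.21 ± 0.33, FDR 0.172). KO lesion 1 lay below WT lesion 2, so the groups overlapped. Ctsc, the dipeptidyl peptidase that activates granule serine proteases, was at 155, 199, 189 and 191 CPM in KO and 111, 144, 140.0 and 100.1 CPM in WT lesions (0.57 ± 0.14, FDR 0.17). Ctsz, a carboxypeptidase, was at 360.1, 569, 502 and 758 CPM in KO and 290.3, 374, 334 and 284 CPM in WT lesions (0.77 ± 0.21, FDR 0.172). Ctsw, found in cytotoxic lymphocytes, was the only cysteine cathepsin below 0 (-0.32 ± 0.26; log2 ratio of mean CPM -0.19 without KO lesion 2 and -0.61 without KO lesion 4). 

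The aspartic protease Ctsd was at 3303, 5724, 4778 and 6745 CPM in KO and 2162, 3234, 2722 and 2366 CPM in WT lesions (0.97 ± 0.24, FDR 0.171). The lowest KO lesion, 1, stood just above the highest WT lesion, 2. The other aspartic protease, Ctse, differed by -0.33 ± 0.54, and its log2 ratio of mean CPM was -0.92 without KO lesion 1 and 0.14 without WT lesion 1. Lamp1, an abundant glycoprotein of the lysosomal membrane, differed by 0.47 ± 0.14 and Lamp2, which also serves chaperone-mediated autophagy, by 0.58 ± 0.17. The lysosomal calcium channel Mcoln1 differed by 0.12 ± 0.10, Tfeb by 0.044 ± 0.19 and Tfe3 by 0.079 ± 0.11, and none of these 3 had an unadjusted p under 0.05. As log2 ratios of mean CPM, Tfeb was at -0.16 without KO lesion 4, -0.045 without WT lesion 4 and 0.16 without KO lesion 1, Tfe3 at 0.0065 without KO lesion 4 and 0.15 without KO lesion 1, and Mcoln1 at 0.053 without WT lesion 3.

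The macrophage markers also stood higher in KO lesions. Their summed level was 5866, 9997, 8891 and 13033 CPM in KO lesions 1 to 4 and 4125, 5586, 5038 and 3759 CPM in WT lesions 1 to 4, with 21 of 21 genes above 0 and a median of 0.82. In both genotypes the animals stood in the same order for the macrophage sum as for Ctss, except that WT lesions 1 and 4 changed places. Of the 14 smooth muscle markers none was above 0 (median -0.43; sums 5759 to 8274 CPM in KO and 7989 to 12376 CPM in WT lesions). The part of cell makeup in the member values was not tested. Among the other marker lists, the number above 0 and the median were 3 of 5 and 0.02 for osteoclast, 9 of 11 and 0.21 for fibroblast, 7 of 9 and 0.37 for endothelial, 5 of 9 and 0.25 for lymphocyte, 6 of 6 and 0.58 for neutrophil and mast cell, and 0 of 4 and -0.33 for epithelial genes. Without KO lesion 4 and WT lesion 1, the member median was 0.22 and no member was called, and 14 had an unadjusted p under 0.05. The median and share of all genes in this setting are not given here, so these values cannot be set against a background.

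**Figure D2:**
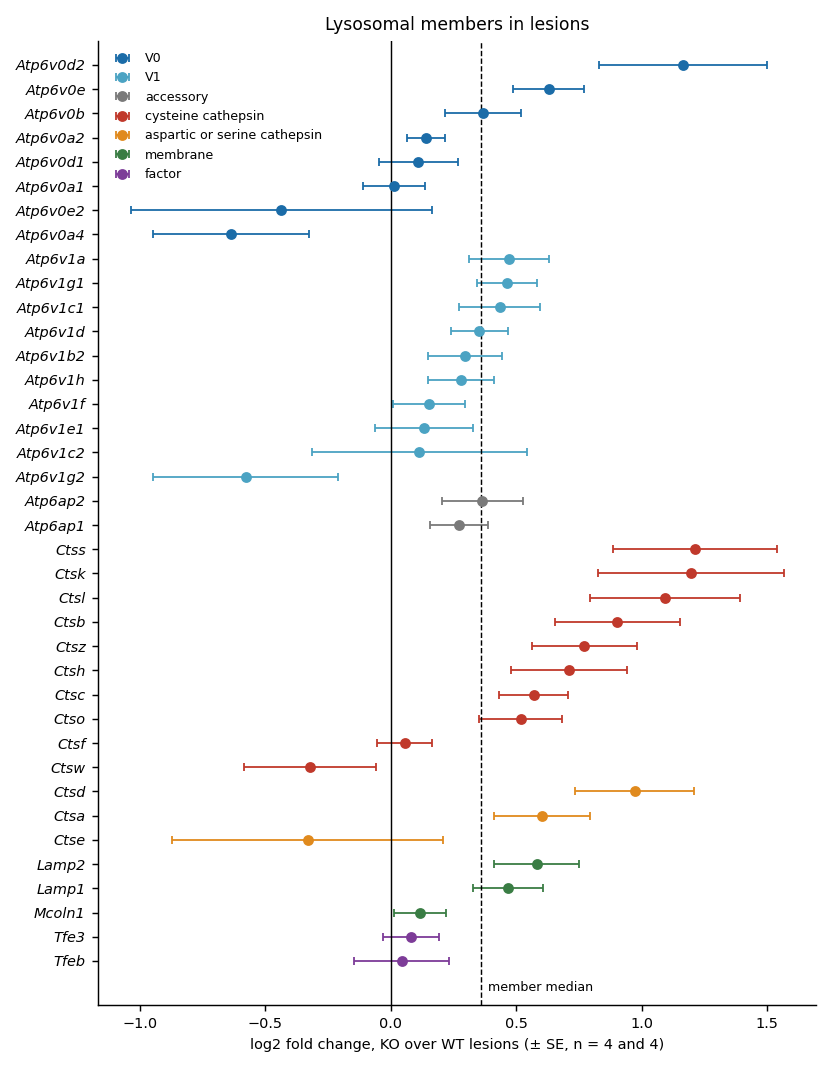
Log2 fold change (KO over WT lesions) with its SE for the 38 members, grouped by class, with a dashed line at the member median of 0.36. Cathepsins Ctss, Ctsk, Ctsl, Ctsd and Ctsb and the V0 subunit Atp6v0d2 lie farthest to the right, and Atp6v0a4, Atp6v1g2, Atp6v0e2, Ctse and Ctsw lie left of 0.

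Lists of lysosomal genes beyond the members were described in the same way in lesions. Of 33 other hydrolases and their activators, 28 were above 0, 22 had an unadjusted p under 0.05 and the median was 0.42, beside 48.7% and 14.8% of all genes. The values were 15, 6 and 0.27 for 17 lysosomal membrane and transport genes, 6, 2 and 0.09 for 8 V-ATPase assembly genes, 5, 2 and 0.21 for 6 genes of mannose 6-phosphate sorting, and 3, 1 and 0.30 for 4 cystatins. They were 8, 4 and 0.16 for 13 genes of the MiT factors and their regulators, and 12, 2 and 0.06 for 17 autophagy genes. By edgeR none was called. Tcirg1, the a3 subunit of the V0 sector under its older name, differed by 0.56 ± 0.22, Mitf (the factor related to Tfeb) by 0.20 ± 0.14 and Cst3 (cystatin C, which inhibits cathepsins) by 0.21 ± 0.16.

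In culture, 36 members could be tested. Ctss and Atp6v0d2 could not: they had 0 to 4 and 0 to 6 counts in each culture library, against 4118 to 25500 and 927 to 4935 counts in each lesion library. On the per-length scale the set was led by Ctsb, Ctsh, Ctsd and Lamp1 in KO cells of vehicle normoxia (257 ± 27.2, 234 ± 49.4, 232 ± 19.9 and 230.1 ± 9.41 RPKM; SD, n = 3), and neighbours in this order did not differ beyond their SDs. In WT cells of vehicle normoxia Ctsd led at 418 ± 10.2 RPKM, followed by Lamp1 at 229 ± 4.38 and Ctsz at 209.6 ± 9.90 RPKM. Ctsb was at 177 ± 5.98 RPKM there, a value too low by its uncounted bases, so its place below Ctsz is uncertain.

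Most subunits of the proton pump rose under hypoxia. Of 19 V-ATPase genes tested, 14 rose and none fell in KO cells with POVPC (background 68.5% of 14496 genes called, 34.5% higher and 33.9% lower). In KO cells with vehicle 13 rose and 1 fell (background 65.4%, 32.6% higher and 32.8% lower), in WT cells with POVPC 13 rose and 1 fell (background 66.1%, 31.8% higher and 34.3% lower) and in WT cells with vehicle 15 rose and none fell (background 68.1%, 32.8% higher and 35.3% lower). Over all 36 members, 23 rose and 5 fell in KO cells with POVPC, 21 and 6 in KO cells with vehicle, 18 and 9 in WT cells with POVPC and 19 and 6 in WT cells with vehicle. The member medians were 0.72, 0.60, 0.24 and 0.46 in that order of settings, beside 0.026, 0.015, -0.024 and -0.032 over all genes. The 12 cathepsins were divided, in the same order into 7 higher and 3 lower, 6 and 3, 3 and 5, and 2 and 5. Scaled to library size alone, the all-gene median shifted to -0.109 in WT cells with POVPC and -0.211 in WT cells with vehicle, and the member medians there were 0.15 and 0.28.

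In all 4 settings 13 members rose, against 18.7% of all genes: the V0 subunits Atp6v0a2, Atp6v0b, Atp6v0d1 and Atp6v0e, the V1 subunits Atp6v1b2, Atp6v1c1, Atp6v1d, Atp6v1f and Atp6v1h, the proteases Ctsa and Ctsd, and Lamp1 and Mcoln1. In all 4 settings 3 fell (Ctsf, Ctso and Tfeb), against 19.8% of all genes. Of the 13, 9 have a listed promoter and 7 of these hold TCACGTG: Atp6v0b, Atp6v0d1, Atp6v0e, Ctsa, Ctsd, Lamp1 and Mcoln1. Of the other 23 members tested, 18 have a listed promoter and 1, Atp6v1a, holds it. This is a description of letters beside directions, on members chosen by their direction and for 1 of the 6 motifs searched. The bare E-box CACGTG also stood in Ctsf, which fell in all 4 settings, and in Ctsl, another of the 23.

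Atp6v0b, a proteolipid of the rotor ring whose printed window holds 2 separate matches, was at 108, 117 and 127 CPM in hypoxia and 63.7, 56.0 and 46.7 CPM in normoxia in KO cells with vehicle. In WT cells with vehicle it was at 87.0, 109 and 77.3 CPM in hypoxia and 39.4, 38 and 38.8 CPM in normoxia. Hypoxia lay above normoxia in every library, and the log2 fold changes were 1.08 ± 0.11 in KO and 1.23 ± 0.11 in WT cells with vehicle, and 1.33 ± 0.11 in KO and 1.39 ± 0.12 in WT cells with POVPC (largest FDR 3.4e-09). Atp6v0d1, which couples the rotor to V1, rose by 1.17 and 1.05 in KO cells and 0.92 and 0.82 in WT cells, with POVPC and with vehicle in that order, which is kept in the values below. Atp6v0e rose by 0.82 ± 0.16 and 0.65 ± 0.16 in KO cells and 1.31 ± 0.16 and 1.41 ± 0.16 in WT cells. Its change was smaller in the KO line with vehicle (difference of the log2 changes, KO minus WT, -0.76 ± 0.22, FDR 0.0098).

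The a1 subunit Atp6v0a1 was called higher in WT cells and not in KO cells. It was at 54.2, 52.0 and 43.7 CPM in hypoxia and 41.9, 46.4 and 53.2 CPM in normoxia in KO cells with vehicle, and at 169.9, 153 and 185 CPM in hypoxia and 74.8, 75.5 and 76.4 CPM in normoxia in WT cells with vehicle. The difference between the lines was -0.27 ± 0.16 (FDR 0.212) with POVPC and -1.08 ± 0.16 (FDR 5.6e-06) with vehicle. Atp6v0e2 went the other way, with 1.19 ± 0.095 and 1.22 ± 0.098 in KO cells and 0.13 ± 0.090 and 0.55 ± 0.088 in WT cells; the differences were 1.06 ± 0.13 (FDR 2.4e-07) with POVPC and 0.67 ± 0.13 (FDR 0.00014) with vehicle. Atp6v0a4 stayed under 2 CPM in every culture library and had 0 counts in all 3 KO libraries of vehicle hypoxia. With the floor set at 3 counts over the group, this was at least 4.58-fold below the mean of KO vehicle normoxia (0.252 CPM). It was at least 15.4-fold below the mean of WT vehicle hypoxia (0.848 CPM). The KO vehicle normoxia libraries had 0, 10 and 8 counts, so the KO groups overlapped at 0.

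In V1, Atp6v1c1 (subunit C1, which is released when the pump comes apart) was at 176, 184 and 188 CPM in hypoxia and 77.7, 65.6 and 61.6 CPM in normoxia in KO cells with vehicle, and at 185, 184 and 166 CPM in hypoxia and 84.6, 79.2 and 78.7 CPM in normoxia in WT cells with vehicle. Hypoxia stood above normoxia without overlap in both lines. Its log2 changes were 1.5 ± 0.076 and 1.42 ± 0.076 in KO and 1.39 ± 0.076 and 1.14 ± 0.075 in WT cells. Atp6v1d (the rotor shaft) and Atp6v1h (a regulatory subunit) rose by 0.72 to 1.04 and by 0.86 to 1.01 over the 4 settings. Atp6v1b2 and Atp6v1f rose by 0.27 to 0.73 and 0.52 to 0.92. The catalytic Atp6v1a rose in KO cells (0.52 ± 0.073 and 0.60 ± 0.073) and was at 0.15 ± 0.073 and 0.13 ± 0.073 in WT cells, a difference of 0.37 ± 0.10 (FDR 0.0059) with POVPC and 0.47 ± 0.10 (FDR 0.00059) with vehicle. Among accessory subunits Atp6ap2 rose in KO cells by 0.82 ± 0.067 and 0.77 ± 0.067, against 0.18 ± 0.066 and 0.015 ± 0.066 in WT cells.

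**Figure D3:**
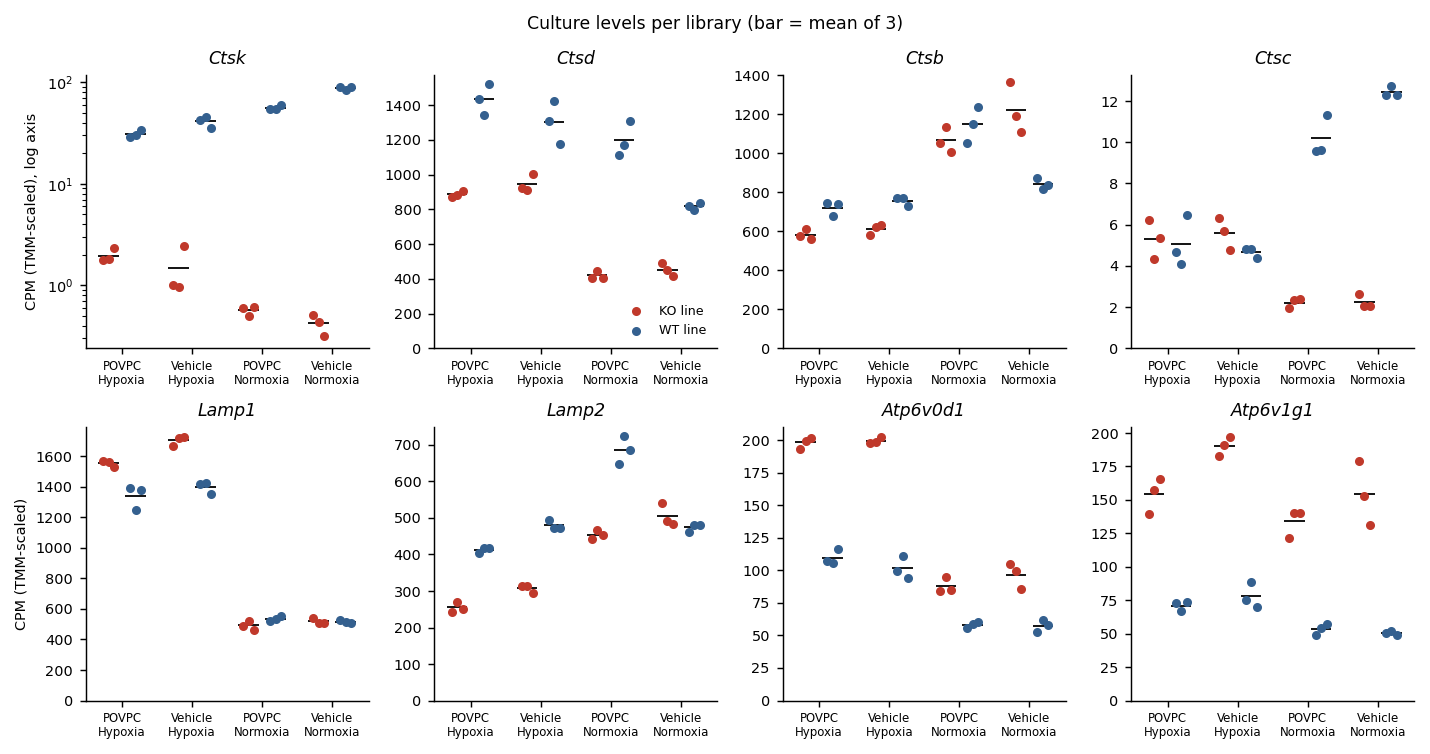
CPM of 8 members in each culture library, by treatment and oxygen, with KO libraries left of WT libraries and a bar at the mean of 3; the Ctsk axis is logarithmic. Lamp1, Ctsd and Atp6v0d1 stand higher in hypoxia than in normoxia in both lines, while Ctsk and Ctsc move in opposite directions in the lines.

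Among members above 1 CPM, Lamp1 had the largest rise under hypoxia in both lines with vehicle. It was at 1665, 1717 and 1729.8 CPM in hypoxia and 543, 508 and 506 CPM in normoxia in KO cells with vehicle, and at 1418, 1425 and 1350.1 CPM in hypoxia and 527, 512 and 509 CPM in normoxia in WT cells with vehicle. The log2 changes were 1.66 ± 0.063 and 1.72 ± 0.063 in KO cells and 1.32 ± 0.063 and 1.44 ± 0.063 in WT cells. Lamp2 did not follow it: it fell by 0.83 and 0.72 in KO cells with POVPC and vehicle and by 0.73 in WT cells with POVPC, and was at 0.015 ± 0.063 (FDR 0.848) in WT cells with vehicle. In KO cells with vehicle Lamp2 was at 313, 315 and 294 CPM in hypoxia and 540.4, 491 and 482 CPM in normoxia. Mcoln1 rose by 1.00 ± 0.10 and 1.11 ± 0.10 in KO cells and 0.59 ± 0.10 and 0.91 ± 0.10 in WT cells.

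The transcript of Tfeb fell under hypoxia in both lines. Tfeb was at 13.6, 15.1 and 12 CPM in hypoxia and 17.1, 21.7 and 17.8 CPM in normoxia in KO cells with vehicle, and at 8.58, 9.39 and 9.14 CPM in hypoxia and 17.6, 15.4 and 14.8 CPM in normoxia in WT cells with vehicle. The log2 changes were -0.59 ± 0.13 and -0.47 ± 0.13 in KO cells and -1.23 ± 0.14 and -0.82 ± 0.13 in WT cells. Tfe3 was at 0.17 ± 0.11 and 0.15 ± 0.12 in KO and 0.18 ± 0.12 in WT cells with vehicle, none called, and was called lower in WT cells with POVPC (-0.32 ± 0.12, FDR 0.0199); that call was lost without WT POVPC normoxia library 1 or WT POVPC hypoxia library 1 or 2. The activity of these factors is set largely by their place in the cell, which RNA does not measure.

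Cathepsins varied in their direction under hypoxia. Ctsd and Ctsa (a carboxypeptidase that also protects other lysosomal enzymes) rose in both lines. Ctsd was at 923, 909.7 and 1005 CPM in hypoxia and 493, 451 and 415 CPM in normoxia in KO cells with vehicle, and at 1309, 1422 and 1178 CPM in hypoxia and 822, 796 and 835 CPM in normoxia in WT cells with vehicle. Its log2 changes were 1.08 ± 0.079 and 1.06 ± 0.079 in KO and 0.26 ± 0.078 and 0.67 ± 0.078 in WT cells, and the lines differed by 0.82 ± 0.11 (FDR 9.6e-07) with POVPC and 0.39 ± 0.11 (FDR 0.0055) with vehicle. Ctsa rose by 1.04 ± 0.071 and 1.30 ± 0.071 in KO and 0.99 ± 0.071 and 0.81 ± 0.070 in WT cells.

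Ctso and Ctsf, cysteine cathepsins with little-known substrates, fell in both lines. Ctso was at 3.58, 2.67 and 2.85 CPM in hypoxia and 16.6, 17 and 15.6 CPM in normoxia in KO cells with vehicle, and at 7.39, 6.92 and 6.84 CPM in hypoxia and 26.5, 26.1 and 24.1 CPM in normoxia in WT cells with vehicle. The log2 changes were -2.96 ± 0.16 and -2.41 ± 0.16 in KO and -1.84 ± 0.15 and -1.86 ± 0.14 in WT cells. Ctsf was at -1.06 ± 0.10 and -0.87 ± 0.11 in KO and -1.12 ± 0.10 and -1.83 ± 0.10 in WT cells.

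Ctsk and Ctsc moved in opposite directions in the lines. Ctsk was at 1.01, 0.953 and 2.45 CPM in hypoxia and 0.512, 0.438 and 0.319 CPM in normoxia in KO cells with vehicle, a log2 change of 1.61 ± 0.31 (FDR 5e-05), and at 42.9, 45.1 and 35.4 CPM in hypoxia and 89.9, 84.2 and 89.7 CPM in normoxia in WT cells with vehicle, a change of -1.1 ± 0.12 (FDR 1.6e-09). The KO values rest on 24, 20 and 24 counts in hypoxia and 10, 10 and 8 counts in normoxia. With POVPC the changes were 1.77 ± 0.24 in KO and -0.85 ± 0.12 in WT cells, and the difference between the lines was 2.62 ± 0.27 with POVPC (FDR 8.5e-09) and 2.70 ± 0.33 with vehicle (FDR 1.3e-07). Ctsc was at 6.33, 5.67 and 4.79 CPM in hypoxia and 2.61, 2.06 and 2.07 CPM in normoxia in KO cells with vehicle, and at 4.80, 4.83 and 4.40 CPM in hypoxia and 12.3, 12.7 and 12.3 CPM in normoxia in WT cells with vehicle. The KO line had lower Ctsc than the WT line in normoxia, and the ranges of both lines overlapped in hypoxia. Its differences were 2.20 ± 0.24 (FDR 3.1e-08) with POVPC and 2.76 ± 0.24 (FDR 2.5e-10) with vehicle. Over all members the hypoxia change differed between the lines for 15 of 36 with POVPC (14 higher and 1 lower in KO; background 30%, with 15.7% and 14.4%) and for 19 with vehicle (12 higher and 7 lower; background 39.1%, with 19.2% and 19.9%).

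Ctsb, the abundant lysosomal endopeptidase, fell in KO cells (-0.88 ± 0.076 and -1.0 ± 0.076) and in WT cells with POVPC (-0.67 ± 0.076), and was at -0.15 ± 0.075 in WT cells with vehicle. Ctsl was called higher with POVPC (0.27 ± 0.074 in KO and 0.22 ± 0.074 in WT cells) and was at 0.0094 ± 0.074 and 0.12 ± 0.073 with vehicle. Ctsh, an aminopeptidase, rose in KO cells (0.63 ± 0.099 and 0.51 ± 0.099), and its change was 0.075 ± 0.099 and 0.012 ± 0.099 in WT cells.

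**Figure D4:**
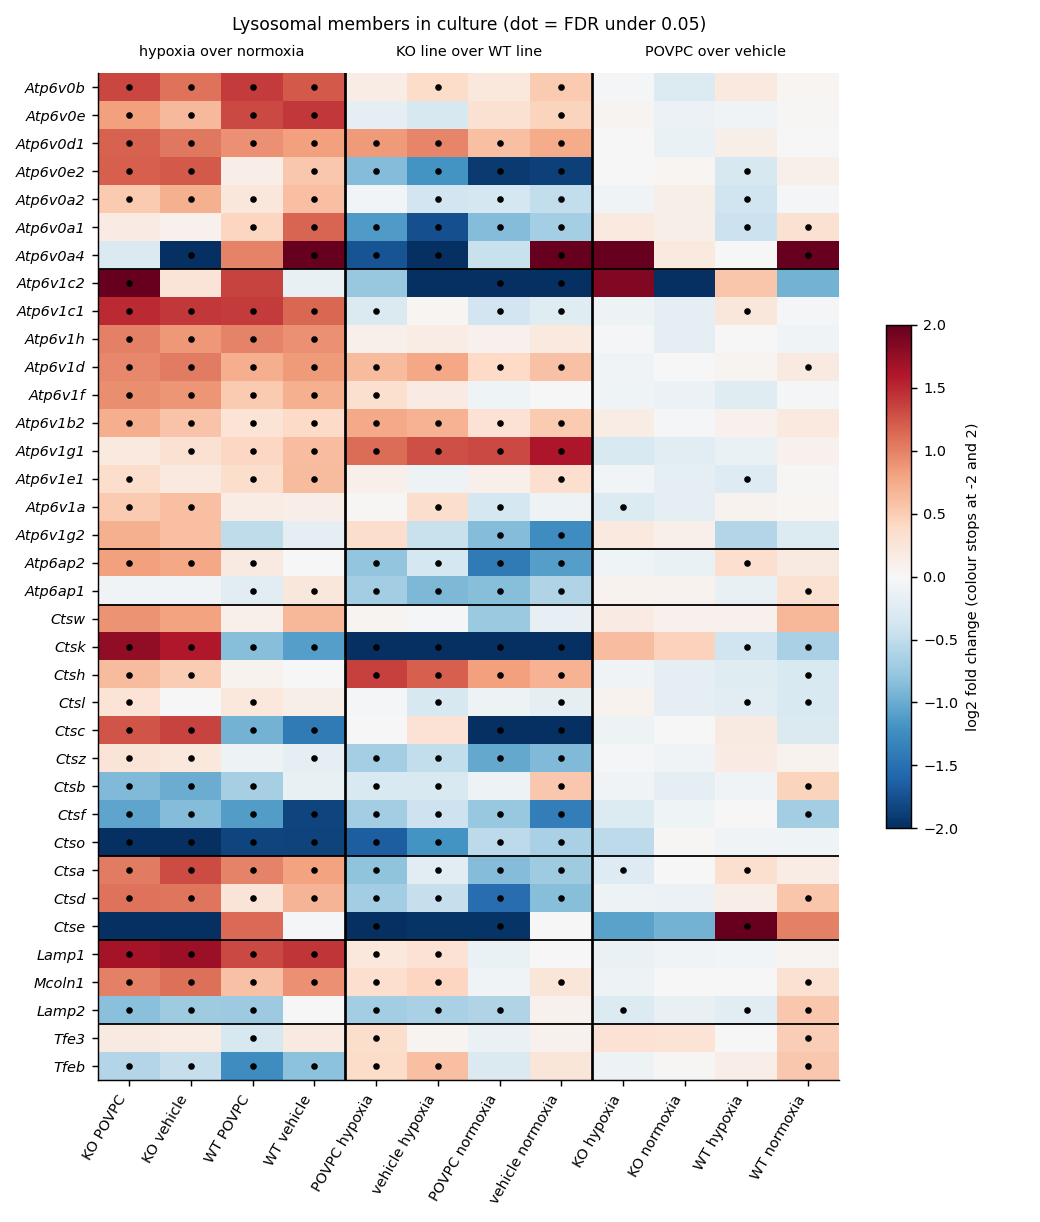
Heat map of log2 fold changes of the 36 members tested in culture (rows, by class) over 12 comparisons (columns: hypoxia over normoxia, KO over WT, POVPC over vehicle), with colour limits at -2 and 2 and a dot where the FDR was under 0.05. The hypoxia columns are mostly red with dots in the V0 and V1 rows, and the POVPC columns of the KO line hold 3 dots in all.

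Other lysosomal genes were divided. Of all genes tested 18.7% rose and 19.8% fell under hypoxia in all 4 settings, and list counts over all 4 settings stand beside these shares. Counts in a single setting stand beside the shares of that setting. In KO cells 34.5% of all genes rose and 33.9% fell with POVPC, and 32.6% rose and 32.8% fell with vehicle. In WT cells 31.8% rose and 34.3% fell with POVPC, and 32.8% rose and 35.3% fell with vehicle. Where 4 values are given here, they stand in the order KO with POVPC, KO with vehicle, WT with POVPC and WT with vehicle. Of 33 other hydrolases and activators, 18 fell and 10 rose under hypoxia in KO cells with POVPC, 17 fell and 11 rose in KO cells with vehicle, 22 fell and 3 rose in WT cells with POVPC, and 21 fell and 6 rose in WT cells with vehicle. Their medians were -0.48, -0.42, -0.54 and -0.40 in that order. In all 4 settings 16 fell, among them Lgmn (legumain, which cuts cathepsins into their mature form; -1.94, -1.58, -2.20 and -1.98) and Psap (the precursor of the saposins; -0.51, -0.42, -0.54 and -0.37), while Galc and Gla rose in all 4. The V0 subunit Tcirg1 rose in all 4 (0.99 ± 0.088, 1.08 ± 0.089, 0.43 ± 0.090 and 0.42 ± 0.088), as did other lysosomal membrane genes, among them Cd63 and Ostm1, while 4 fell in all 4 (Laptm4a, Scarb2, Slc17a5 and Slc38a9). Of 8 V-ATPase assembly genes Tmem199 and Dmxl2 rose and Rogdi fell in all 4, shares near those of all genes.

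Of 12 genes of the MiT factors and their regulators 6 rose in all 4 settings: Flcn (folliculin; 1.48, 1.47, 1.02 and 0.92), its partner Fnip1, and the Rag GTPases Rraga, Rragb, Rragc and Rragd, which hold Tfeb and mTORC1 at the lysosome. Mitf fell in all 4 (-1.84 ± 0.19, -1.8 ± 0.20, -1.63 ± 0.19 and -1.17 ± 0.17), as did Lamtor2. Of 17 autophagy genes 8 rose in all 4, among them the cargo receptor Sqstm1 (1.21, 0.98, 1.63 and 1.4) and Map1lc3b (1.22, 1.03, 0.73 and 1.38), and Atg7 and Wipi1 fell. The 6 sorting genes of mannose 6-phosphate divided into 3 that rose in all 4 (Gnptab, M6pr and Nagpa) and 2 that fell (Igf2r and Sort1). The cystatins Cst6 and Cstb rose in all 4, and Cst3 was at 0.53 ± 0.12 and 0.25 ± 0.12 in KO and 0.69 ± 0.12 and -0.28 ± 0.12 in WT cells. 

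Marker sums also moved with oxygen. Smooth muscle markers summed to between 77.6 and 136 CPM in hypoxia libraries and between 219 and 507 CPM in normoxia libraries, and fibroblast markers to between 8571 and 16115 CPM in KO hypoxia, 47680 and 54028 CPM in KO normoxia, 1448 and 2386 CPM in WT hypoxia, and 20091 and 20943 CPM in WT normoxia. Epithelial markers, 5 genes, summed to 307, 259.6 and 290.3 CPM in hypoxia and 105, 92.3 and 89.7 CPM in normoxia in KO cells with vehicle, and to 539, 668 and 509 CPM in hypoxia and 13.5, 12.4 and 13.5 CPM in normoxia in WT cells with vehicle. With POVPC they summed to 255, 270.1 and 261 CPM in hypoxia and 97.5, 97.0 and 88.0 CPM in normoxia in KO cells, and to 158, 144 and 204 CPM in hypoxia and 11.6, 11.9 and 14 CPM in normoxia in WT cells. Macrophage sums were 12.5 to 17.8 CPM in KO hypoxia, 17.7 to 22 CPM in KO normoxia, 25.9 to 30.3 CPM in WT hypoxia and 33.4 to 69.0 CPM in WT normoxia libraries. Osteoclast sums were lower in hypoxia without overlap in KO cells, at 56.8 to 59.98 CPM in hypoxia and 65.2 to 80.1 CPM in normoxia with POVPC, and 48.6 to 52.8 CPM in hypoxia and 54.7 to 72.5 CPM in normoxia with vehicle. In WT cells they overlapped with POVPC, at 44.5 to 69.8 CPM in hypoxia and 44 to 60.2 CPM in normoxia, and were higher in hypoxia with vehicle, at 106 to 144 CPM in hypoxia and 69.0 to 73.2 CPM in normoxia. Endothelial sums were higher in hypoxia in KO cells, at 49.3 to 66.8 CPM in hypoxia and 27.3 to 46.1 CPM in normoxia, and overlapped in WT cells, at 69.5 to 93.1 CPM in hypoxia and 68.2 to 101 CPM in normoxia. Depth and ribosomal RNA also differed. Library 3 of KO vehicle hypoxia held 11618385 counts, had 8.07 multimapped reads per assigned read and the lowest TMM factor of the culture libraries, 0.845, and WT POVPC hypoxia libraries 1 and 2 were shallow too. The ribosomal RNA gene Rn45s took 2.95% to 4.06% of counts in KO vehicle hypoxia and 1.29% to 8.02% in KO vehicle normoxia, 2.11% to 3.47% in WT vehicle hypoxia and 1.31% to 1.5% in WT vehicle normoxia. With POVPC it took 3.75% to 8.31% in KO hypoxia and 1.71% to 3.94% in KO normoxia, and 4.20% to 7.09% in WT hypoxia and 3.23% to 11.1% in WT normoxia. Without the 3 shallowest libraries 26 members were called in KO vehicle, 28 in KO POVPC, 26 in WT vehicle and 24 in WT POVPC cells. With all libraries 65.4%, 68.5%, 68.1% and 66.1% of all genes were called in that order, and the shares without the 3 are not given here. The part of these markers and of Rn45s in the member changes was not tested.

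Between the lines, 10 members were lower and 5 higher in KO than in WT cells in all 4 settings, against 13.8% and 14% of all genes. The 10 were the V0 subunits Atp6v0a1 and Atp6v0e2, both accessory subunits, and 6 cathepsins (Ctsa, Ctsd, Ctsf, Ctsk, Ctso and Ctsz). The 5 were Atp6v0d1, Atp6v1b2, Atp6v1d, Atp6v1g1 and Ctsh. Over all 36 members 10 were called higher and 15 lower in KO cells in POVPC hypoxia (background 57.6%, with 30% higher and 27.6% lower), 10 and 15 in vehicle hypoxia (59.9%, 29.5% and 30.4%), 5 and 18 in POVPC normoxia (60.2%, 29.5% and 30.7%) and 11 and 16 in vehicle normoxia (60.6%, 29.8% and 30.8%). The member medians were -0.048, -0.27, -0.37 and -0.055 in that order, beside 0.022, 0.0052, -0.019 and -0.017 over all genes. Of the 12 cathepsins 8 were lower in KO cells in each setting, with 1 higher in each except vehicle normoxia, which had 2. Scaled to library size alone, the all-gene median of vehicle normoxia shifted to -0.157 and that of the members to -0.19, and the member median of POVPC hypoxia turned to 0.013.

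Among members above 1 CPM, Ctsk showed the largest difference between the lines. In vehicle normoxia it had 10, 10 and 8 counts (0.512, 0.438 and 0.319 CPM) in the KO libraries and 2498, 2648 and 2483 counts (89.9, 84.2 and 89.7 CPM) in the WT libraries, a log2 fold change of -7.71 ± 0.19 (FDR 2.7e-23). The KO values lay below every WT value in all 4 settings, with changes of -3.98 ± 0.16 in POVPC hypoxia, -5.00 ± 0.17 in vehicle hypoxia and -6.60 ± 0.18 in POVPC normoxia. In lesions, a mixture of cell types, the same gene was at 191 CPM in KO and 83.5 CPM in WT animals, a difference not called. Without KO lesion 4 the KO mean was 136 CPM. Ctsd was lower in KO cells, with log2 changes of -0.69 ± 0.078, -0.46 ± 0.078, -1.52 ± 0.079 and -0.85 ± 0.078 in POVPC hypoxia, vehicle hypoxia, POVPC normoxia and vehicle normoxia, an order kept below. Ctsz was lower, at -0.67 ± 0.069, -0.49 ± 0.069, -1.02 ± 0.070 and -0.89 ± 0.069. Ctsc was at 0.0047 ± 0.17 with POVPC and 0.28 ± 0.17 with vehicle in hypoxia, and was lower in normoxia (-2.20 ± 0.17 and -2.47 ± 0.17). Ctsh was higher, at 466, 366 and 307 CPM in KO and 234, 231 and 236 CPM in WT libraries of vehicle normoxia (0.70 ± 0.099), and by 1.37 ± 0.10, 1.20 ± 0.10 and 0.82 ± 0.099 in POVPC hypoxia, vehicle hypoxia and POVPC normoxia.

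Among pump subunits above 1 CPM, Atp6v1g1 had the highest fold change of KO over WT cells. It was at 179, 153 and 131 CPM in KO and 50.6, 51.7 and 49.1 CPM in WT libraries of vehicle normoxia. The groups did not overlap, and the changes were 1.12 ± 0.098, 1.29 ± 0.097, 1.32 ± 0.098 and 1.61 ± 0.098. Atp6v0e2 was the lowest of those above 1 CPM in vehicle normoxia (-1.86 ± 0.096), and Atp6v0a1 in both hypoxia settings (-1.13 ± 0.11 and -1.75 ± 0.12). Atp6ap2 was lower, at -0.79 ± 0.067, -0.36 ± 0.066, -1.42 ± 0.067 and -1.11 ± 0.067. Atp6v0e was called higher in vehicle normoxia (0.44 ± 0.16), a call lost without KO library 1 of that group, and Atp6v0b in vehicle hypoxia (0.37 ± 0.11), a call lost without KO or WT library 3.

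Lamp1 was higher in KO cells in hypoxia (0.21 ± 0.062 with POVPC and 0.29 ± 0.062 with vehicle) and was at -0.13 ± 0.062 and 0.0076 ± 0.062 in normoxia. Lamp2 was lower in every setting but vehicle normoxia (-0.70 ± 0.064, -0.64 ± 0.064 and -0.60 ± 0.064, against 0.088 ± 0.063). Mcoln1 was higher in vehicle hypoxia and normoxia (0.43 ± 0.10 and 0.24 ± 0.10) and Tfeb in vehicle hypoxia (0.60 ± 0.14). In POVPC hypoxia Mcoln1 (0.33 ± 0.10), Tfeb (0.37 ± 0.14) and Tfe3 (0.36 ± 0.12) were called higher in KO cells. Each of these 3 calls was lost without the shallow WT library 1 of that group or without KO library 1, and those of Mcoln1 and Tfeb also without WT library 2 and that of Tfeb also without WT library 3 or KO library 3 and with DESeq2. In POVPC normoxia Mcoln1, Tfeb and Tfe3 were at -0.075 ± 0.10, -0.28 ± 0.12 and -0.13 ± 0.11, and Tfe3 was at 0.051 ± 0.12 in hypoxia and 0.086 ± 0.12 in normoxia with vehicle.

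The other hydrolases were lower in KO cells more often than higher. Of 33, 22 were lower and 4 higher in POVPC hypoxia, 24 and 5 in vehicle hypoxia, 25 and 4 in POVPC normoxia and 26 and 3 in vehicle normoxia, with medians of -0.48, -0.50, -0.74 and -0.56. Of all genes 27.6%, 30.4%, 30.7% and 30.8% were lower and 30%, 29.5%, 29.5% and 29.8% higher, in that order of settings. In all 4 settings 18 were lower, against 13.8% of all genes, among them Lgmn, Psap and Tpp1, and Arsb and Fuca1 were higher in all 4. Mitf was lower in all 4 (-0.85, -1.29, -0.64 and -0.66). Cst3 was at -0.73 ± 0.12 (FDR 2.1e-05) in vehicle hypoxia and -1.26 ± 0.13 (FDR 5.2e-09) in vehicle normoxia, and Tcirg1 at 0.51 ± 0.088 (FDR 1.3e-05) and -0.16 ± 0.089 (FDR 0.133). Fibroblast marker sums were higher in the KO line in every setting, as given above, and so were epithelial sums except in vehicle hypoxia, where they were lower. Smooth muscle sums were 127, 111 and 121 CPM in KO and 81.5, 77.6 and 102 CPM in WT libraries of POVPC hypoxia, 131, 136 and 128 CPM in KO and 132, 135 and 123 CPM in WT libraries of vehicle hypoxia, and 253, 245 and 252 CPM in KO and 273, 229.7 and 240.5 CPM in WT libraries of POVPC normoxia. In vehicle normoxia they were 219, 243 and 273 CPM in KO and 446, 507 and 502 CPM in WT libraries. The lines did not overlap in POVPC hypoxia and vehicle normoxia, in opposite directions, and overlapped in the other settings. Macrophage and endothelial sums were lower in the KO line in every setting, without overlap. Macrophage sums were 14.5, 17.8 and 17.3 CPM in KO and 26.9, 30.3 and 28.2 CPM in WT libraries of POVPC hypoxia, and 12.8, 12.5 and 13 CPM in KO and 29.2, 27.3 and 25.9 CPM in WT libraries of vehicle hypoxia. In normoxia they were 19.6, 19.7 and 17.7 CPM in KO and 58.5, 67.4 and 69.0 CPM in WT libraries with POVPC, and 22, 20 and 19.3 CPM in KO and 36.0, 34.1 and 33.4 CPM in WT libraries with vehicle. Endothelial sums were 56.5 to 66.8 CPM in KO and 69.5 to 93.1 CPM in WT libraries of POVPC hypoxia, 49.3 to 59.3 and 71.4 to 91.2 CPM in those of vehicle hypoxia, 39.2 to 46.1 and 83.8 to 101 CPM in those of POVPC normoxia, and 27.3 to 43.8 and 68.2 to 83.1 CPM in those of vehicle normoxia. Osteoclast sums were lower in KO (52.8, 48.6 and 49.7 CPM) than in WT libraries (134, 106 and 144 CPM) in vehicle hypoxia, were higher in KO (80.1, 71.6 and 65.2 CPM) than in WT libraries (60.2, 46.5 and 44 CPM) in POVPC normoxia, and overlapped in the other settings. The part of these markers in the differences was not tested.

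POVPC changes were few in the KO line. In KO cells 3 of 36 members were called in hypoxia, all lower (background 4.06%, with 1.97% higher and 2.09% lower), and 0 in normoxia by edgeR (background 0.0414%; 11 at an unadjusted p under 0.05, against 7.42% of all genes; 0 by DESeq2). In WT cells 11 were called in hypoxia, 4 higher and 7 lower (background 21%, with 8.22% higher and 12.7% lower), and 14 in normoxia, 10 higher and 4 lower (background 26.9%, with 13.1% higher and 13.8% lower). The POVPC change differed between the lines for 6 members in hypoxia (3 higher and 3 lower in KO; background 9.37%, with 5.89% and 3.48%) and 7 in normoxia (2 higher and 5 lower; background 16.2%, with 8.17% and 8%). Scaled to library size alone the splits were 6 higher and 4 lower in WT normoxia, 3 and 1 for the difference in hypoxia and 2 and 3 for that in normoxia. That scaling shifted the all-gene median to -0.130 in WT normoxia and to 0.131 and 0.197 for the differences in hypoxia and normoxia, and turned the member median of WT normoxia to -0.049, against 0.064. For the hypoxia differences between the lines with vehicle it shifted the all-gene median to 0.130. No member was called in the same direction in all 4 POVPC comparisons, nor was any of the 14496 genes tested (0%).

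In WT normoxia the members that rose included Ctsd, Tfeb, Lamp2, Tfe3 and Ctsb. Ctsd was at 1114, 1170.2 and 1310.0 CPM with POVPC and 822, 796 and 835 CPM with vehicle (0.55 ± 0.078, FDR 2e-06). Lamp2 was at 648, 726 and 687 CPM with POVPC and 463, 479.8 and 482 CPM with vehicle (0.53 ± 0.064, FDR 1.1e-07). Neither gene overlapped between the treatments. Tfeb rose by 0.54 ± 0.13 (FDR 0.0014), Tfe3 by 0.49 ± 0.12 (FDR 0.0017) and Ctsb by 0.45 ± 0.075 (FDR 2.9e-05). Mcoln1 (0.31 ± 0.10), Atp6ap1 (0.31 ± 0.092) and Atp6v0a1 (0.31 ± 0.11) were also called, each at an FDR above 0.01, and the 3 calls were lost by scaling to library size alone. The Mcoln1 and Atp6ap1 calls were also lost without WT POVPC library 3 or WT vehicle library 3, that of Mcoln1 also without WT vehicle library 1, and that of Atp6v0a1 without any 1 of the 6 libraries.

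In WT normoxia 4 members fell. Ctsk was at 54.1, 54.5 and 59.8 CPM with POVPC and 89.9, 84.2 and 89.7 CPM with vehicle, a log2 change of -0.65 ± 0.11 (FDR 5.8e-05). The others were Ctsf (-0.70 ± 0.096, FDR 1.4e-06), Ctsl (-0.30 ± 0.074) and Ctsh (-0.30 ± 0.099); the Ctsh call was lost without any 1 library of the comparison other than WT POVPC library 2. Lamp1 was at 0.056 ± 0.062. Rn45s, a ribosomal RNA gene, took 9.36%, 3.23% and 11.1% of counts in the 3 POVPC libraries of WT normoxia, against 1.47%, 1.31% and 1.5% in the vehicle libraries. Smooth muscle markers summed to 273, 229.7 and 240.5 CPM with POVPC and 446, 507 and 502 CPM with vehicle there (9 of 13 tested called lower and 1 higher, median -1.35), and macrophage markers to 58.5, 67.4 and 69.0 CPM with POVPC and 36.0, 34.1 and 33.4 CPM with vehicle (2 of 8 tested called higher and 0 lower). Of all genes 13.1% were called higher and 13.8% lower in this comparison. Osteoclast markers summed to 60.2, 46.5 and 44 CPM with POVPC and 72.8, 69.0 and 73.2 CPM with vehicle, and endothelial markers to 101, 83.8 and 92.2 CPM with POVPC and 68.2, 83.1 and 76.4 CPM with vehicle, both without overlap. The part of Rn45s and of these markers in the member changes was not tested.

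In WT hypoxia 10 of the 11 called members were above 1 CPM, with log2 changes between -0.42 and 0.34. The other was the aspartic protease Ctse, called higher on 13, 6 and 13 counts with POVPC and 2, 4 and 6 counts with vehicle. Atp6ap2 rose by 0.34 ± 0.066 and Ctsa by 0.32 ± 0.070, and Atp6v0a1 (-0.42 ± 0.11), Atp6v0a2 (-0.40 ± 0.090) and Ctsk (-0.40 ± 0.12) were called lower. Atp6v1c1 (0.23 ± 0.074), Atp6v0e2 (-0.31 ± 0.089), Atp6v1e1 (-0.26 ± 0.094), Lamp2 (-0.22 ± 0.064) and Ctsl (-0.21 ± 0.074) were also called. Of these 10, the call of Ctsa alone held when the 3 shallowest culture libraries, 2 of them from WT POVPC hypoxia, were left out. All but Atp6ap2, Ctsa and Atp6v0a2 lost their call when a single library was left out, WT POVPC hypoxia library 1 or 2 in each case. These libraries also had 5.79 and 9.24 multimapped reads per assigned read, against 1.56 in library 3, and library 2 had lymphocyte markers at 29.6 CPM, against 0.757 and 0.781 CPM in libraries 1 and 3. With POVPC against vehicle in WT hypoxia, sums were lower without overlap for epithelial (144 to 204 against 509 to 668 CPM), osteoclast (44.5 to 69.8 against 106 to 144 CPM), smooth muscle (77.6 to 102 against 123 to 135 CPM) and fibroblast markers (1448 to 1876 against 2215 to 2386 CPM). Rn45s took 4.20% to 7.09% of counts with POVPC and 2.11% to 3.47% with vehicle. The part of these in the calls was not tested. In KO hypoxia Lamp2 (-0.27 ± 0.064), Atp6v1a (-0.27 ± 0.073) and Ctsa (-0.26 ± 0.070) were called lower, and each call was lost without KO POVPC hypoxia library 3 or KO vehicle hypoxia library 2. With POVPC against vehicle in KO hypoxia, sums were lower without overlap for fibroblast (8571 to 11572 against 14316 to 16115 CPM) and smooth muscle markers (111 to 127 against 128 to 136 CPM). They were higher for osteoclast (56.8 to 59.98 against 48.6 to 52.8 CPM) and macrophage markers (14.5 to 17.8 against 12.5 to 13.04 CPM), and Rn45s overlapped. Their part was not tested. In KO normoxia the smallest p-values were those of Ctsl (-0.20 ± 0.074, FDR 0.655), Atp6v1a, Ctsb, Atp6v0b and Lamp2.

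Ctsk itself was at 0.62 ± 0.23 in KO hypoxia and 0.45 ± 0.34 in KO normoxia, neither called, and the difference from the WT change was 1.02 ± 0.26 (FDR 0.0107) in hypoxia and 1.10 ± 0.35 (FDR 0.0304) in normoxia. The normoxia values rest on 19, 14 and 16 counts in the KO POVPC libraries and 10, 10 and 8 in the KO vehicle libraries, and that call was lost without KO vehicle library 2 or 3 or KO POVPC library 1 or 3. The hypoxia call was lost without KO vehicle library 1 or 2 or KO POVPC library 3. The lines also differed in normoxia in Lamp2 (-0.68 ± 0.090), Ctsd (-0.66 ± 0.11), Ctsb (-0.64 ± 0.11) and Tfeb (-0.52 ± 0.18). Of the cathepsin inhibitors Cst3 fell with POVPC in WT normoxia (-1.13 ± 0.13, FDR 1.3e-07). Of the 33 other hydrolases 3 fell with POVPC in KO hypoxia, where 2.09% of all genes fell. In WT hypoxia 11 fell and 3 rose (12.7% and 8.22% of all genes). In WT normoxia 9 fell and 6 rose (13.8% and 13.1% of all genes). In KO normoxia 0 were called by edgeR and 2 had an unadjusted p under 0.05, a share near the 7.42% of all genes.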

How the data were processed

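RNA-seq counts per gene were used for 8 lesion and 24 culture libraries. Per the file headers, the authors assigned reads to UCSC mm9 genes with featureCounts 1.4.4 without strand, as fragments with both mates mapped in lesions and as single reads in culture, so the deposited counts of the 2 sets are not on 1 scale. STAR and DESeq2 are among the tools in the submitters' processing notes. Replicates were not pooled. Total counts were 6526099 to 11137414 per lesion library and 8063121 to 30231799 per culture library.

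In R 4.3.3, edgeR 4.0.16 was used (filterByExpr with a minimum count of 10 and a minimum total of 15, TMM scaling, robust quasi-likelihood fits), with limma 3.58.1 and DESeq2 1.42.0. Lesions (14993 genes tested) and cultures (14496 genes, 1 model of 8 groups) were fitted apart. There were 17 comparisons: 1 in lesions, 12 between culture groups and 4 differences of differences. Adjusted p-values (FDR) are Benjamini-Hochberg over all genes tested in a comparison, with calls under 0.05. The adjustment does not cover the number of comparisons. CPM are counts scaled to TMM-adjusted library sizes and RPKM divide them by the listed exon length, bases shared with other genes included. The fits were tested on simulated data whose spread followed the trend over genes alone, without differences between single genes. In simulated lesions 13.8% of 1.5-fold and 83.3% of 2-fold changes were recovered. For KO against WT in vehicle normoxia the shares were 67.7% and 78.1%. For single lesion genes, log2 ratios of mean CPM without 1 lesion were added after seeing the data.

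The members and gene lists were chosen with earlier results of these data known. Named were called members by size of change, up to 8 per direction and comparison and 5 per difference, with a mean of at least 1 CPM in either group, or the 5 with the smallest p where none was called. Ctsk, Tfeb, Tfe3, Mcoln1, Lamp1, Lamp2, Mitf, Tcirg1 and Cst3 were always eligible, and of each list up to 3 called genes by p, besides the genes named for a shared direction in all 4 settings, which were chosen after their values were seen. Promoter sequences come from RefSeq (GRCm38.p6); their coordinates were not joined to the mm9 files.

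Among 13 group pairs, correlations of same-numbered libraries were above 0.1 throughout only for hypoxia and normoxia in KO cells with POVPC (0.119 to 0.377 over the 3 pairs). For POVPC and vehicle in WT hypoxia they were 0.0627 to 0.264, and each library was closest to its same-numbered one, so pairing there is not excluded. With the replicate number as a block, the member count for hypoxia in KO cells with POVPC was 28, as without it. The alternatives tried were RLE or no scaling factors, DESeq2, filters on low counts, no robust estimation, the replicate block, the compared groups alone, halved culture counts, each library left out in turn, and sets of doubtful libraries left out.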

Additional observations from a re-analysis of the deposited data

Results flagged for a closer look

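In lesions, Atp6v1h in KO animal 3 lay apart from its group at 137 CPM, against 143 CPM (142.5 to 143.4) in the other 3 KO animals. It was the 1 value past the limit of a test for a lone outlying sample over 76 combinations of gene and group, and chance passes about 1 in 20.

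The response to hypoxia differed between the KO and WT lines by edgeR's test of the difference. With POVPC the KO minus WT differences of log2 change were 2.62 for Ctsk, 2.20 for Ctsc, -1.12 for Ctso, 1.06 for Atp6v0e2 and 0.82 for Ctsd. With vehicle they were 2.76 for Ctsc, 2.70 for Ctsk, -1.08 for Atp6v0a1, 0.96 for Ctsf and -10.03 for Atp6v0a4. The last rests on a group with 0 counts, KO vehicle hypoxia, so its fitted size depends on the prior count.

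The response to POVPC differed between the lines in hypoxia by 1.02 for Ctsk, 0.62 for Atp6v0a1, -0.58 for Ctsa, -0.43 for Atp6ap2 and 5.56 for Atp6v0a4, which rests on the same group at 0. In normoxia it differed by 1.10 for Ctsk, -0.68 for Lamp2, -0.66 for Ctsd, -0.64 for Ctsb and 0.61 for Ctsf. These are the 5 largest called differences in each setting, and each genotype is 1 cell line.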

How the results depend on the processing

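None of the 282 called member values changed sign in the 4757 values under the alternatives run. Of the uncalled values of Tfeb, Tfe3, Mcoln1, Lamp1 and Lamp2, 19 did, 14 of them when 1 library was left out; the log2 values follow, and the cause was not tested. By library size alone Tfeb in lesions was at -0.024 (against 0.044; -0.12 without KO 4 and WT 1). For KO against WT in vehicle normoxia Lamp1 was at -0.13, Tfe3 at -0.054 and Lamp2 at -0.052 (against 0.0076, 0.086 and 0.088; Lamp1 -0.0078 under the stricter filter of 5 CPM). Library size alone also gave Lamp1 -0.057 for POVPC in WT normoxia (against 0.056), Lamp2 -0.17 for hypoxia in WT vehicle (against 0.015; -0.016 under the stricter filter), and for the difference of the POVPC response Lamp1 0.043 in normoxia (against -0.13) and Lamp1 0.031 and Lamp2 0.050 in hypoxia (against -0.074 and -0.054). For the difference of the hypoxia response with vehicle it gave Tfe3 0.070 (against -0.036). For POVPC in WT hypoxia Mcoln1 (against -0.0047) was at 0.013 with RLE, 0.015 with DESeq2, 0.020 under the stricter filter, 0.013 with the groups alone, 0.022 with halved counts and 0.18 without the 3 shallowest culture libraries. Tfe3 there (against -0.014) was at 0.0042, 0.0047, 0.011, 0.0068, 0.011 and 0.17 under the same settings. For POVPC in KO normoxia Mcoln1 (against 0.0017) was at -0.0062 with RLE, -0.0064 with DESeq2, -0.0090 with no filter, -0.0031 under the stricter filter, -0.0093 with the groups alone and -0.0023 with halved counts. Leaving out 1 library at a time gave Tfeb -0.17 to 0.14 in lesions. For KO against WT it gave Tfe3 -0.030 to 0.13 in vehicle hypoxia, Mcoln1 -0.14 to 0.0043 in POVPC normoxia, and Tfe3 -0.062 to 0.25 and Lamp1 -0.025 to 0.027 in vehicle normoxia. For POVPC it gave Tfeb -0.27 to 0.034 in KO hypoxia, Tfeb -0.055 to 0.13 and Mcoln1 -0.077 to 0.081 in KO normoxia, and Mcoln1 -0.13 to 0.073 and Tfe3 -0.15 to 0.079 in WT hypoxia. For hypoxia with vehicle it gave Tfe3 -0.013 to 0.29 in KO and Lamp2 -0.0066 to 0.036 in WT cells. The difference of the POVPC response in hypoxia ranged over -0.21 to 0.028 for Mcoln1, and that of the hypoxia response with vehicle over -0.20 to 0.11 for Tfe3. In lesions DESeq2 called 12 members, against 0 by edgeR, and the counts over all genes were 489 with DESeq2, 11 without a filter on low counts and 1 without KO 4 and WT 1, against 0. Without single lesions the member count was 0 to 0 and the member median 0.23 to 0.43. For POVPC in WT hypoxia (11 members, 3037 genes) the counts were 7 members by library size alone, 6 members and 1720 genes with the groups fitted alone, and 1 member and 1073 genes without the 3 shallowest culture libraries. That setting was added after seeing the data and leaves 1 WT POVPC hypoxia library, assumed to vary like the others. For POVPC in KO hypoxia (3 members, 588 genes) they were 5 and 1012 with DESeq2 and 0 and 341 by library size alone. For POVPC in KO normoxia (6 genes) they were 16 with DESeq2, 3 by library size alone, 3 without robust estimation and 0 with the groups alone. Without the 3 shallowest libraries the difference of the POVPC response in hypoxia had 2 members (against 6) and 426 genes (against 1358; 828 with the groups alone), and that of the hypoxia response with POVPC had 9 members (against 15). The cause was not tested. Leaving out 1 library at a time gave the member counts below, with counts over all genes in brackets. For KO against WT they were 20 to 23 in POVPC hypoxia (7646 to 7910) and 24 to 27 in vehicle hypoxia (8054 to 8321). In normoxia they were 20 to 23 with POVPC (8031 to 8130) and 24 to 27 with vehicle (8088 to 8534). In POVPC hypoxia each omission gave fewer than all libraries did, over members (10 higher and 15 lower) and all genes (8351). For hypoxia they were 28 to 29 in KO POVPC (9329 to 9499) and 26 to 28 in KO vehicle (8839 to 9138). In WT cells they were 24 to 27 with POVPC (8978 to 9285) and 23 to 26 with vehicle (9339 to 9531). The difference of the hypoxia response had 12 to 17 with POVPC (3846 to 4406) and 17 to 22 with vehicle (5096 to 5933). POVPC in WT hypoxia ranged over 4 to 12 members (4, 6 and 7 without WT POVPC library 1, 2 or WT vehicle library 1) and 2260 to 3396 genes. In WT normoxia it ranged over 9 to 13 members (9 without library 3 of either) and 3117 to 3316 genes. All libraries gave more there, with 10 members higher and 4 lower and 3896 genes. In KO hypoxia the range was 0 to 3 members (0 without KO POVPC library 3 or KO vehicle library 2) and 269 to 532 genes. In KO normoxia it was 0 to 0 members and 1 to 309 genes (309 without KO vehicle library 3). The difference of the POVPC response ranged over 3 to 8 members in hypoxia (3 without the same libraries of KO hypoxia) and 1018 to 2012 genes. In normoxia it ranged over 4 to 8 members (4 without KO POVPC library 3) and 1942 to 2618 genes. The replicate block moved no member count by over 1.5 times (26 against 27 for KO against WT in vehicle normoxia, whose numbers pair nothing), and of the named calls it ended Mcoln1 for KO against WT in vehicle normoxia (FDR 0.058), Atp6v1e1 for POVPC in WT hypoxia (FDR 0.061) and Atp6v0a4 for the POVPC difference in hypoxia (FDR 0.059). Library size alone also turned the member medians of POVPC in KO hypoxia (0.018, against -0.067) and of the POVPC difference in hypoxia (0.056, against -0.050). Depth limits Ctsk in KO cells and Atp6v0a4.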
